A study of Mus musculus with 8 samples.

Results

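The collagen genes are the 44 protein-coding mouse genes whose symbol is Col, a number, a and a number, found by that pattern among the 47643 genes of the count files. All 44 were present in the files, and 29 of them passed the filter on low counts, as did 13829 genes in all. The data are RNA sequencing counts from whole kidneys, 4 wild-type libraries (WT) and 4 from conditional knockout mice (cKO) with the genotype Six2-Cre;Cox10-fl/fl. Replicate 2 of each group was taken at 2.5 months of age and the others at 3 months. Cox10 encodes an enzyme that makes heme A for cytochrome c oxidase, the last complex of the mitochondrial respiratory chain. Six2-Cre acts in nephron progenitors, so it can delete the floxed gene in the nephron epithelium, while interstitial fibroblasts, pericytes, vessels and the collecting duct arise from other cells and keep it. The labels do not say whether WT mice carried Cre or a floxed allele. They number the libraries and do not state that each came from a separate animal, so the p values measure the spread between these libraries.

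Collagens are made of 3 chains that wind into a triple helix, each chain from its own gene or from several copies of 1 gene. Fibrillar collagens build the fibres of connective tissue, type IV collagen forms the sheet of basement membranes under epithelium and around capillaries, and types VIII and X form network lattices. The remaining classes include type VI, which forms beaded filaments, the fibril-associated collagens (FACIT), which coat fibrils, the multiplexins of the basement membrane zone, and collagens that span the cell membrane. In the kidney, interstitial fibroblasts and pericytes are known as main makers of fibrillar collagen, and the glomerular filter rests on type IV chains made by podocytes.

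Library totals ran from 9454830 to 15838026 counts. Cox10 itself had 19.2 to 24.6 CPM (counts scaled to a common library size) in WT and 10.9 to 22.3 in cKO, overlapping ranges, with an edgeR adjusted p of 0.619, and a total over the whole gene does not single out the floxed part. All 8 kidney tubule markers listed, Lrp2 and Umod among them, were detected in every library. Their summed level was 9081 to 11340 CPM in WT and 3367 to 7413 CPM in cKO. At an edgeR adjusted p under 0.05, 3 were lower and Aqp2 was higher, against 7.14% lower and 9.57% higher of all tested genes. Slc34a1 and Umod together held most of each WT sum, with means of 4140 and 2578 CPM in WT and 1515 and 1578 in cKO. Umod did not pass. Reads of Y-linked genes were absent from 1 of 4 WT libraries (WT 1) and from 3 of 4 cKO libraries (all but cKO 3), so genotype and sex overlap in part. Genes with at least 8 kb of exonic sequence stood high in WT 3 and WT 4, with median log2 deviations from the WT mean of 0.37 and 0.21, against -0.27 and -0.28 in WT 1 and WT 2 and -0.37 to -0.14 in cKO. In bulk kidney, more cells of a type and more RNA per cell cannot be told apart.

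Of the 29 collagen genes tested, 19 were higher and 3 lower in cKO at an edgeR adjusted p under 0.05, while 9.57% of all tested genes were higher and 7.14% lower (16.7% in either direction). The median log2 fold change, cKO over WT, was 1.498 over the 29 and -0.01 over all tested genes. Genes that passed the filter only because 1 group is high are among the 29, so this count does not describe all 44. The 19 included 6 fibrillar, 2 type IV, 3 network, 3 type VI, 3 FACIT and 2 multiplexin genes. Those lower were the fibrillar gene Col27a1 and the type IV genes Col4a3 and Col4a4. Every cKO library lay above every WT library for the same number, 19, and below for 4, against 13.1% and 9.56% of all tested genes. A sex term left 16 of the 19 called and 0 of the 3, with the direction kept in all 22, against 5.17% higher and 1.63% lower of all tested genes. Without WT 4 and cKO 4, which carry the later sample numbers in the file headers, 9 of the 19 and 0 of the 3 were called, against 3.01% and 1.09% of all genes tested then, and the direction was again the same in all 22.

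**Figure D1:**
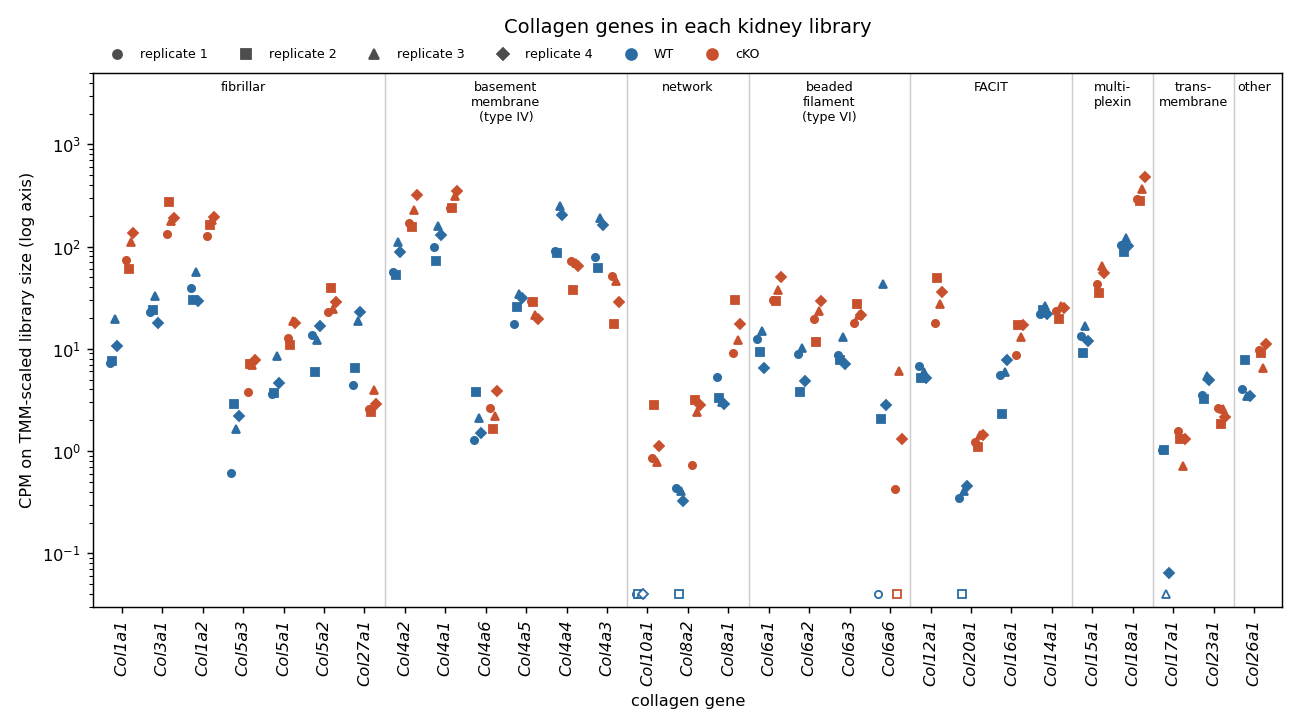
Levels of the 29 tested collagen genes in each library, in CPM on a log axis, with WT in blue, cKO in orange and 1 marker shape per replicate number, ordered by class and then by fold change. Open markers at the foot stand for libraries with 0 counts. The cKO markers lie wholly above the WT markers for 19 genes and wholly below for 4.

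Collagen genes together took 0.0786% ± 0.0319 (SD, n = 4) of all counts in WT and 0.183% ± 0.0362 (SD, n = 4) in cKO libraries. The share was 0.057%, 0.0496%, 0.119% and 0.0888% in the WT libraries, in replicate order, and 0.157%, 0.151%, 0.194% and 0.229% in the cKO libraries. All cKO libraries stood above all WT libraries, and the highest WT library was WT 3. The make-up of these counts differed as well. Fibrillar genes held 13.5% ± 1.52 of the collagen counts in WT and 29.6% ± 4.30 in cKO (SD, n = 4), and multiplexins 15.1% ± 3.41 and 23.2% ± 2.15. Type IV genes held 60.2% ± 6.65 in WT and 36.3% ± 3.89 in cKO. As a share of all counts, type IV genes did not fall, at 0.0485% ± 0.0234 in WT and 0.0666% ± 0.0163 in cKO (SD, n = 4), with overlapping ranges. These shares are a description with no test, since they are scores over the members.

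**Figure D2:**
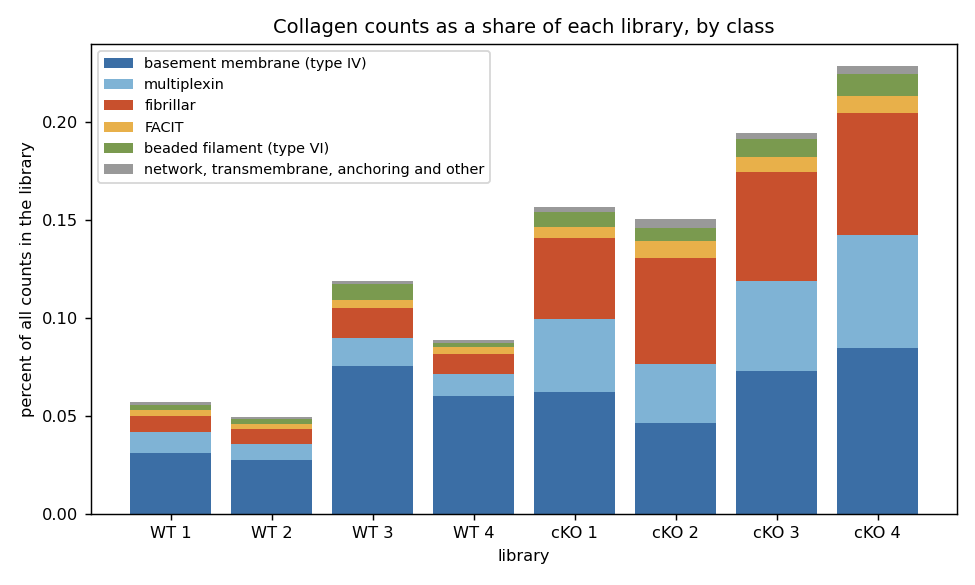
Counts of collagen genes as a percent of all counts in each library, stacked by class. The total is 0.0496% to 0.119% in WT and 0.151% to 0.229% in cKO, and the fibrillar and multiplexin parts are larger in each cKO library than in any WT library.

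The fibrillar class rose in 6 of its 7 tested genes. Col1a1 encodes the chain that supplies most of type I collagen, the main fibre of scar tissue (chromosome 11, 94936224 to 94953042, mm10). It had 7.25, 7.58, 19.7 and 10.6 CPM in the WT libraries and 73.3, 59.8, 111 and 135 in the cKO libraries, here and later in replicate order. The lowest cKO library was thus at about 3 times the highest WT library. The ratio of means was 8.41 and the log2 fold change 3.07 (edgeR adjusted p = 0.000536, SE 0.38). Its partner Col1a2 (chromosome 6, 4504814 to 4541544) had 39.2, 30.2, 56.2 and 29.6 CPM in WT and 126, 164, 180 and 196 in cKO, a log2 fold change of 2.10 (edgeR adjusted p = 0.000536, SE 0.26). Col3a1, the type III chain of fine reticular fibres (chromosome 1, 45311538 to 45349706), had 23.1, 23.8, 32.5 and 17.9 CPM in WT and 134, 271, 177 and 188 in cKO. Its log2 fold change was 2.99 (edgeR adjusted p = 9.2e-05, SE 0.28), the smallest adjusted p among the collagen genes. For these 3 genes the groups were far apart, and the highest cKO library was cKO 4 for the type I chains and cKO 2 for Col3a1. Within libraries without Y-linked reads the log2 fold changes of Col1a1 and Col3a1 were 3.62 and 3.10, against 3.14 and 2.84 where such reads were present. Each of these contrasts has a single library on 1 side (WT 1 or cKO 3), whose own spread is unmeasured, so only the sizes are given. They called 0.448% and 2.99% of all tested genes higher.

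Type V chains join type I fibrils and set their diameter. Col5a2 had 13.7, 5.97, 12.2 and 16.6 CPM in WT and 23.0, 39.3, 24.5 and 28.4 in cKO, a log2 fold change of 1.24 (edgeR adjusted p = 0.0186), and it lost its call with a sex term (log2 fold change 1.10, adjusted p = 0.0921) and without cKO 2 or cKO 4. Col5a1 went from 5.07 ± 2.27 to 15.1 ± 3.72 CPM and Col5a3 from 1.83 ± 0.959 to 6.42 ± 1.80 (SD, n = 4), both called, with Col5a3 losing its call without cKO 4 (adjusted p = 0.0542). Of the 4 other fibrillar genes, which make cartilage-type or minor chains, Col2a1 had 0 counts in all libraries, and Col11a1, Col11a2 and Col24a1 had at most 7 counts in any. At these depths, Col2a1 cannot be compared.

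Col27a1, a fibrillar gene known from cartilage (chromosome 4, 63214004 to 63334991), went the other way. It had 4.40, 6.43, 18.7 and 23.2 CPM in WT, and 2.56, 2.39, 3.98 and 2.87 in cKO. WT 3 and WT 4 were well above WT 1 and WT 2, and WT 1 lay close to the highest cKO library. The log2 fold change was -2.16 (edgeR adjusted p = 0.0129, SE 0.49). It was -1.40 with a sex term (adjusted p = 0.135), -1.73 without WT 4 and cKO 4 (adjusted p = 0.107) and -1.69 with an offset for exonic length (adjusted p = 0.012). The gene has 13.0 kb of exonic sequence, so it is among those that stood high in WT 3 and WT 4.

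The sequences just before the RefSeq start sites of Col3a1, Col1a2, Col10a1 and Col27a1 are shown because these genes include the clearest rises and the 1 fibrillar fall. They come from RefSeq (GRCm38.p6, plus strand, 5′ to 3′), end at the RefSeq start or, for Col1a2, before an annotated exon, and lie at chr1:45311288-45311537, chr6:4505370-4505492, chr10:34389731-34389980 and chr4:63215162-63215411. The GENCODE spans given for Col1a2 and Col27a1 begin upstream of these stretches, which therefore lie inside those spans, outside annotated exons. Capitals mark, on either strand, the TATA box TATAAA, the CCAAT box, the GC box GGGCGG, the AP-1 motif TGANTCA, and CAGACA, a motif known for Smad binding.
Col3a1: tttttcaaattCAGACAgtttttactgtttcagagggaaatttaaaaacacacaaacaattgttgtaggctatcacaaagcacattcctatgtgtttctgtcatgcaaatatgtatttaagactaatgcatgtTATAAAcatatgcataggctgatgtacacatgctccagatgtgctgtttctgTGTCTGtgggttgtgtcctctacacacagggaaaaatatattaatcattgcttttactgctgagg
Col1a2: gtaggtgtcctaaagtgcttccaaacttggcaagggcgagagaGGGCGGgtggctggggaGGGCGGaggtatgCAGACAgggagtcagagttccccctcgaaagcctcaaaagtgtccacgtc
Col10a1: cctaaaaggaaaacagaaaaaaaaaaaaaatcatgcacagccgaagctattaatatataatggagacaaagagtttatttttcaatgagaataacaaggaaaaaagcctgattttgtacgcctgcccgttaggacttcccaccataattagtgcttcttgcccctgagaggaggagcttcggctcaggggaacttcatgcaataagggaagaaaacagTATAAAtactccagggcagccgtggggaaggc
Col27a1: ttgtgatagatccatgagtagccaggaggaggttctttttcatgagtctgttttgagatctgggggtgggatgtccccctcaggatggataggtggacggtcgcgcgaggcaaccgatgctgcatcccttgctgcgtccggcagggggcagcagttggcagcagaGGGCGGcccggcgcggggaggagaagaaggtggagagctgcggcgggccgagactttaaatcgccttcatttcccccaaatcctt
Of the 44 genes, 35 had an entry, among them 16 of the 19 called higher and 2 of the 3 called lower. The counts are over the whole 250 bases before the RefSeq start, of which only 123 are printed for Col1a2, whose CCAAT lies outside them. TATAAA occurred in 2 of the 16 (Col3a1 and Col10a1) and in 13% of all 27025 promoters, CCAAT in 6 and 34.5%, and GGGCGG in 9 and 32.9%. TGANTCA occurred in 1 (Col6a1) and 6.87%, and CAGACA in 5 and 17.1%. Of these motifs, those in the lower gene Col27a1 were limited to GGGCGG, and Col4a4 held none of the 5. The motifs do not overlap one another in the printed stretches, and a match is only a match of letters.

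The type IV class split. The 6 chains assemble into different sheets: Col4a1 and Col4a2 encode the chains of all basement membranes, whereas Col4a3, Col4a4 and Col4a5 encode those of the mature glomerular filter and part of the tubule, and lose function in Alport syndrome. The genes lie head to head in pairs. The annotated starts of Col4a1 and Col4a2 are 21 bases apart on chromosome 8, those of Col4a4 and Col4a3 are 72 bases apart on chromosome 1, and those of Col4a6 and Col4a5 are 1309 bases apart on the X chromosome.

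Col4a1 (chromosome 8, 11198423 to 11312826) had 99.9, 72.0, 157 and 130 CPM in WT and 238, 236, 316 and 347 in cKO, a log2 fold change of 1.31 (edgeR adjusted p = 0.00919, SE 0.28). Col4a2 (chromosome 8, 11312805 to 11449287) had 55.9, 53.0, 111 and 88.9 CPM in WT and 171, 155, 229 and 318 in cKO, a log2 fold change of 1.498 (edgeR adjusted p = 0.00886, SE 0.31). In both, the libraries kept the same order within each genotype, with WT 3 the highest WT library and cKO 4 the highest cKO library. Without WT 4 and cKO 4 neither passed, at 1.24 and 1.31 (adjusted p = 0.0799 and 0.069).

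Col4a3 (chromosome 1, 82586921 to 82722059) had 79.1, 62.3, 190 and 161 CPM in WT and 51.9, 17.6, 46.5 and 28.7 in cKO, a log2 fold change of -1.76 (edgeR adjusted p = 0.0152, SE 0.41). Col4a4 (chromosome 1, 82448423 to 82586849) had 91.5, 87.1, 248 and 205 CPM in WT and 71.7, 37.2, 69.0 and 64.7 in cKO, a log2 fold change of -1.38 (edgeR adjusted p = 0.0246, SE 0.36). Both were lower in every cKO library than in any WT library, and in both WT 3 and WT 4 stood well above WT 1 and WT 2. With a sex term they were -1.42 and -1.02 and neither passed (adjusted p = 0.0896 and 0.187). Without cKO 4 Col4a3 no longer passed (adjusted p = 0.0615), and Col4a4 did not without WT 3, WT 4, cKO 2 or cKO 4 (adjusted p = 0.0674, 0.0717, 0.0644 and 0.0722). These are genes with about 10 kb of exonic sequence, and with the length offset the falls were -1.44 and -1.03, both still past the threshold (adjusted p = 0.0116 and 0.0191), in a fit that called 10.7% of all genes higher and 8.65% lower. Within libraries with Y-linked reads the values were -1.57 and -1.39, and within those without them -1.27 and -0.66. Neither passed in these contrasts, each with a single library on 1 side, where 0.419% and 0.484% of all tested genes were called lower there. Of 8 podocyte markers 0 passed with edgeR or DESeq2, and Clic5 alone was at an edgeR unadjusted p under 0.05. Their summed level was 265 to 448 CPM in WT and 167 to 367 CPM in cKO, and their part in the falls was not tested.

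Col4a5 had 27.3 ± 7.35 CPM in WT and 24.7 ± 5.05 in cKO, and Col4a6, the minor chain that pairs with it in other membranes, 2.17 ± 1.13 and 2.58 ± 0.941 (SD, n = 4). Their ranges overlapped, and the edgeR adjusted p values were 0.709 and 0.674. Per kilobase of exonic sequence, Col4a4 and Col4a3 were 2nd and 4th of the 29 genes in WT, at 14.9 and 12.4 CPM per kb, and 9th and 11th in cKO, at 5.72 and 3.63. Col4a1 held 15.4 CPM per kb in WT and 38.1 in cKO, where it was 2nd after Col18a1.

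**Figure D3:**
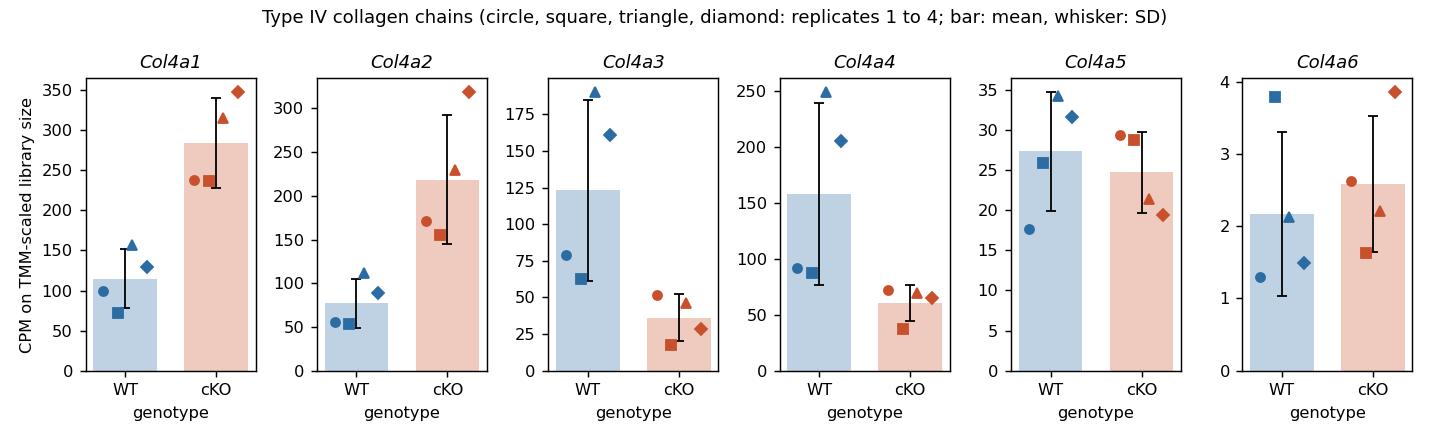
CPM of the 6 type IV collagen genes in each library, with the mean as a bar and the SD as a whisker (n = 4 per genotype), each gene on its own axis from 0. Col4a1 and Col4a2 are higher in all cKO than in all WT libraries, Col4a3 and Col4a4 are lower in all, and Col4a5 and Col4a6 overlap.

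Ratios of chains within a library do not depend on scaling, and 12 pairs were compared by an exact two-sided permutation test over the 8 libraries. The smallest p this allows is 0.0286, and after Benjamini-Hochberg adjustment over the 12 pairs 0 passed, while 3 were at the smallest raw p (adjusted p = 0.114). With only 3 pairs at that p, none could pass whatever the size of its difference, so the adjusted test cannot decide on them. Col4a3 to Col4a1 had log2 ratios of -0.34, -0.21, 0.27 and 0.31 in WT and -2.20, -3.74, -2.76 and -3.60 in cKO. The geometric mean ratio was thus 1.01 in WT and 0.119 in cKO, with no overlap. Col4a5 to Col4a1 went from 0.241 to 0.0869, and Col1a1 to Col1a2 from 0.277 to 0.548, each with no overlap between the groups. Col4a1 to Col4a2 had ratios of 1.49 and 1.34 (exact p = 0.371), and Col4a3 to Col4a4 went from 0.78 to 0.566 (exact p = 0.0571), with overlapping ranges. Col3a1 to Col1a1 was 2.29 and 2.07 (exact p = 0.83).

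All 3 network genes were called higher, but Col8a2 and Col10a1 passed the count filter only through the cKO libraries, where they are high, so the count of 3 is no support for the class. Col8a1, known from endothelium and vessel wall, had 5.26, 3.33, 3.02 and 2.91 CPM in WT and 9.16, 29.8, 12.1 and 17.3 in cKO, a log2 fold change of 2.23 (edgeR adjusted p = 0.00312, SE 0.38). Col8a2, its partner chain, had 0.431, 0, 0.408 and 0.323 CPM in WT and 0.732, 3.16, 2.42 and 2.81 in cKO, on 15 and 118 counts (edgeR adjusted p = 0.0124). Both were highest in cKO 2 and lowest among cKO libraries in cKO 1. Col10a1, the network collagen of hypertrophic cartilage, had 0 counts in every WT library and 0.854, 2.83, 0.783 and 1.11 CPM in cKO, 68 counts in all. Against a floor of 3 counts over the WT group it was at least 19.8-fold higher in cKO (edgeR adjusted p = 0.00442). Of 5 cartilage markers, Matn1 and Matn3 had 0 counts in all libraries. Acan had 0 counts in every WT library and 1, 2, 1 and 1 in cKO, and the groups of Cnmd overlapped. Hapln1 was lower, with means of 1.79 CPM in WT and 0.0661 in cKO, but passed the count filter only through the WT libraries. The summed level of the 5 was 1.23 to 2.93 CPM in WT and 0.183 to 0.522 in cKO. Hapln1 alone held most of each WT sum, so the sums do not describe the other markers.

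The ubiquitous type VI chains rose together. Col6a1 had 12.6, 9.30, 14.9 and 6.47 CPM in WT and 30.3, 29.2, 37.6 and 49.9 in cKO (log2 fold change 1.77, SE 0.29, edgeR adjusted p = 0.00242). Col6a2 had 8.89, 3.79, 10.2 and 4.85 CPM in WT and 19.5, 11.6, 23.3 and 29.6 in cKO (1.60, SE 0.36, adjusted p = 0.0132), and Col6a3 8.71, 7.69, 13.1 and 7.18 in WT and 17.9, 27.6, 21.6 and 21.2 in cKO (1.27, SE 0.25, adjusted p = 0.00669). These 3 chains make up the common type VI trimer, and in each of them the groups did not overlap, though without cKO 4 the call of Col6a2 was lost (adjusted p = 0.051). Col6a6, an alternative to Col6a3, had 0, 2.07, 43.1 and 2.85 CPM in WT and 0.427, 0, 6.05 and 1.31 in cKO. A single library, WT 3, carried nearly all of its WT counts, and it did not pass (edgeR adjusted p = 0.326). The remaining alternatives, Col6a4 and Col6a5, had at most 14 counts in any library and were not tested.

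Among the FACIT genes, Col12a1, which bridges fibrils to other matrix, had 6.73, 5.17, 5.88 and 5.24 CPM in WT and 17.9, 49.7, 27.6 and 36.0 in cKO. The WT libraries were close together and the cKO libraries spread over nearly 3 times, with a log2 fold change of 2.51 (edgeR adjusted p = 0.000523, SE 0.31). Col14a1, which also binds fibrils, had 21.7, 23.8, 26.1 and 21.8 CPM in WT and 23.7, 19.5, 26.0 and 25.3 in cKO, a log2 fold change of 0.02 (edgeR adjusted p = 0.956, SE 0.18). Per kilobase it was 7th of the 29 in WT and 12th in cKO. Col16a1 had 5.52, 2.30, 5.88 and 7.76 CPM in WT and 8.61, 17.1, 13.2 and 17.0 in cKO (adjusted p = 0.023), and Col20a1 0.345, 0, 0.408 and 0.453 in WT and 1.22, 1.09, 1.42 and 1.44 in cKO (adjusted p = 0.0296). Both lost their calls with a sex term, at folds of nearly the same size (log2 1.32 and 2.02, against 1.36 and 1.98). Col16a1 also lost its call without WT 3, cKO 2 or cKO 4, and Col20a1 without any 1 of WT 3, WT 4 and the 4 cKO libraries. Like Col8a2 and Col10a1, Col20a1 passed the count filter only through the cKO libraries, where it is high, so its call is no support for the class. The other FACIT genes, Col9a1, Col9a2, Col9a3, Col19a1 and Col22a1, were below the filter. Col19a1 had 0, 6, 15 and 24 counts in WT and 0, 1, 0 and 0 in cKO.

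The multiplexins Col15a1 and Col18a1, whose C-terminal ends release restin and endostatin, stood 8th and 1st of the 29 in cKO by CPM per kb. Col18a1 (chromosome 10, 77052178 to 77166548) had 105, 87.6, 122 and 102 CPM in WT and 292, 277, 369 and 476 in cKO (log2 fold change 1.77, SE 0.25, edgeR adjusted p = 0.000998). Col15a1 (chromosome 4, 47208161 to 47313167) had 13.5, 9.07, 16.8 and 11.8 CPM in WT and 42.6, 35.1, 63.9 and 54.7 in cKO (1.94, SE 0.26, adjusted p = 0.000824). Neither had overlapping groups, and both kept their call with any 1 library left out.

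No transmembrane collagen passed in the edgeR fit, though Col23a1 was at an unadjusted p under 0.05 and passed in DESeq2 (adjusted p = 0.0344). Col23a1 had 3.54, 3.21, 5.47 and 4.92 CPM in WT and 2.62, 1.85, 2.56 and 2.15 in cKO, all cKO libraries lower, with a log2 fold change of -0.90 (edgeR adjusted p = 0.062, SE 0.30). Col17a1, a hemidesmosome component, had 1.04, 1.03, 0 and 0.0647 CPM in WT and 1.59, 1.31, 0.711 and 1.31 in cKO (adjusted p = 0.279). Col26a1 had 4.05, 7.69, 3.43 and 3.43 CPM in WT and 9.83, 9.03, 6.47 and 11.2 in cKO and did not pass in edgeR (log2 fold change 0.99, SE 0.32, adjusted p = 0.0546), though it did in DESeq2 (adjusted p = 0.0202). WT 2 overlapped cKO 3 for Col26a1, and the groups of Col17a1 overlapped too. Below the filter were Col13a1, Col25a1, Col28a1 and the anchoring fibril gene Col7a1, which had 0, 1, 26 and 24 counts in WT and 1, 3, 6 and 2 in cKO. Col28a1 had 1, 1, 1 and 0 counts in WT and 5, 6, 4 and 3 in cKO. All its cKO libraries lay above all WT libraries, at counts too low to test.

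**Figure D4:**
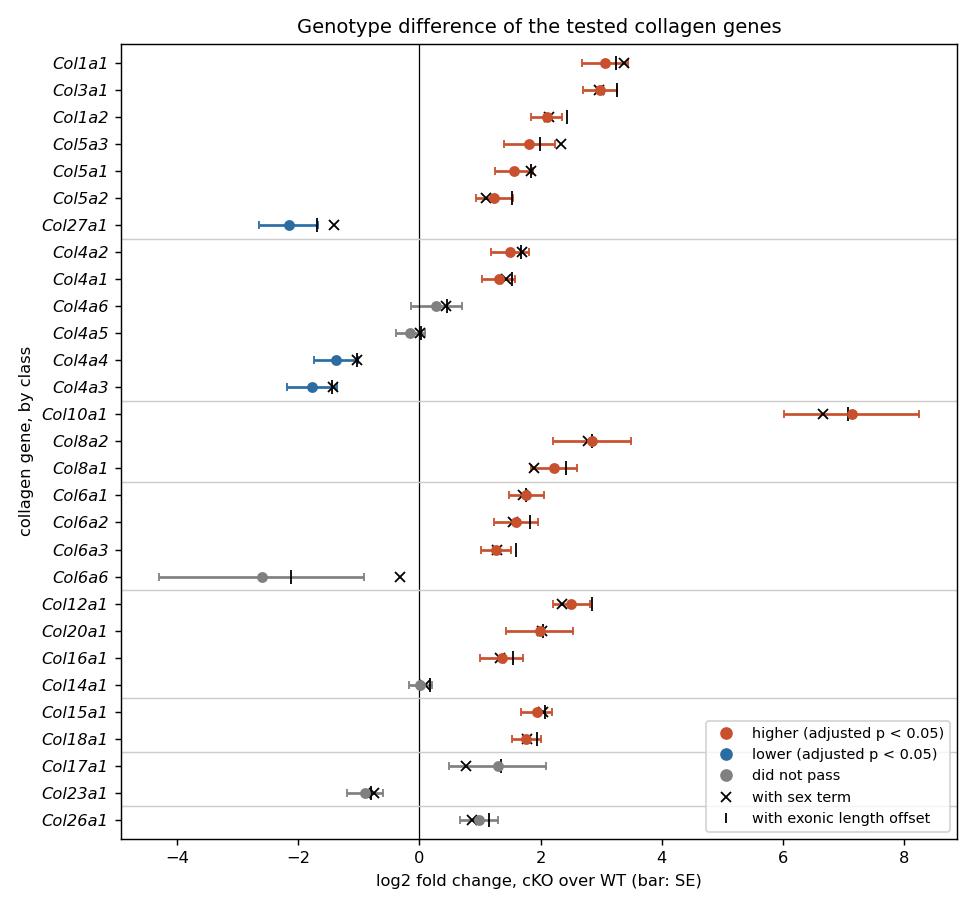
Log2 fold change, cKO over WT, of the 29 tested collagen genes by class, with SE bars from the edgeR fit, a cross for the value with a sex term and a tick for the value with an exonic length offset. The fibrillar, network, type VI, FACIT and multiplexin genes lie mostly right of 0, and Col27a1, Col4a3 and Col4a4 lie left of it under each fit.

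Among the cKO libraries, cKO 4 held the highest CPM for 9 of the 19 genes called higher, cKO 2 for 8 and cKO 3 for 2, and cKO 1 for 0. Those highest in cKO 2 include Col3a1, Col12a1, Col8a1 and Col10a1, and those highest in cKO 4 include the type I chains, Col4a1, Col4a2 and Col18a1. Whether the genotype difference depends on the presence of Y-linked reads could hardly be tested, since WT 1 and cKO 3 are each the only library of their kind. In the edgeR interaction test 0 of 29 genes passed and 0 were at an unadjusted p under 0.05, with 0.0362% and 0.0289% of all tested genes called in the 2 directions. The interaction terms ran from -7.44 (Col6a6), -1.69 (Col5a3) and -1.27 (Col27a1) to 0.82 (Col8a2) on the log2 scale, so a dependence is not shown to be absent.

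Of the marker lists for other cell types, those of fibroblasts, myofibroblasts and pericytes, leukocytes and urothelium had summed levels higher in every cKO than in every WT library. Over all tested genes 9.57% were called higher and 7.14% lower. Of 8 fibroblast markers 6 were higher and Pdgfra was lower, with a summed level of 133 to 226 CPM in WT and 405 to 615 CPM in cKO. Of 8 myofibroblast and pericyte markers 6 were higher, with sums of 196 to 283 and 439 to 938 CPM. Tagln and Acta2 together held most of each cKO sum, with means of 334 and 191 CPM in cKO and 49.9 and 55.7 in WT. Rgs5 and Myh11 did not pass, with means of 60.7 and 19.5 CPM in WT and 41.4 and 15.4 in cKO. The 8 endothelial markers summed to 334 to 487 and 267 to 451 CPM, with 1 higher and 3 lower. Of 5 adipose markers Lep fell below the count filter. Of the 4 tested 0 passed in edgeR or DESeq2, with 2 at an edgeR unadjusted p under 0.05. The sums of the 5 adipose markers were nonetheless 0.841 to 71.1 CPM in WT and 59.1 to 338 in cKO. The 8 leukocyte markers summed to 87.2 to 142 and 290 to 585 CPM, with 4 higher. Lyz2 alone held most of each cKO sum, at 219 to 532 CPM in cKO and 19.4 to 77.6 in WT. Csf1r, with means of 53.7 CPM in WT and 34.5 in cKO, and Ptprc did not pass. Cd3e and Cd79a fell below the count filter, and Cd79a was lower in every cKO library than in any WT library. Of 6 urothelial markers 5 were higher, with sums of 12.5 to 58.2 and 83.9 to 135 CPM. The fibroblast marker Mfap5, the leukocyte marker Itgam and the urothelial marker Krt14 are among those called higher. Like Col8a2 and Col10a1, they passed the count filter only through the cKO libraries, where they are high. Their calls are therefore no support for these lists. Adrenal cortex markers summed to 0.408 to 0.804 CPM in WT and 0.522 to 1.41 CPM in cKO, with Cyp11b1, Cyp11b2 and Cyp21a1 at 0 counts in all libraries, and skeletal muscle markers summed to 11.8 to 65.7 CPM in WT and 9.58 to 22.1 CPM in cKO. The part of these cells in the collagen values was not tested.

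Collagen is modified, folded and exported before its ends are cut and its chains cross-linked. Of 45 genes listed for these steps and for collagen binding, 37 were tested, of which 11 were higher and 2 lower in cKO, with a median log2 fold change of 0.33. Over all tested genes 9.57% were higher and 7.14% lower, so the 2 lower genes are near the share of all genes and are no result about the list. Of 6 cross-linking genes 3 rose: the lysyl oxidase Lox from 2.33 ± 0.892 to 23.5 ± 14.0 CPM (log2 fold change 3.32, SE 0.42, edgeR adjusted p = 0.000663), Loxl2 from 6.96 ± 1.72 to 28.6 ± 4.10 and Loxl1 from 9.31 ± 3.11 to 30.7 ± 10.4 (SD, n = 4). The proteinases that cut off the ends of procollagen, Bmp1 and Adamts2, rose from 6.27 ± 1.74 to 22.2 ± 6.84 and from 3.50 ± 1.48 to 14.0 ± 3.84 CPM, 2 of the 5 tested genes of that step. Of 8 chaperone and export genes 2 were called, both higher, while the median log2 fold change of the 8 was -0.35. The collagen chaperone Serpinh1 rose from 85.7 ± 20.5 to 193 ± 26.9 CPM and Fkbp10 from 3.88 ± 0.537 to 13.4 ± 4.13. The other 6, among them Mia3 and Sec23a of the export route, had log2 fold changes from -1.21 to -0.11 and did not pass.

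The modifying enzymes differed among themselves. Of 14 tested, Colgalt1, P3h3 and Plod3 were higher, at log2 fold changes of 0.65, 0.74 and 0.80, and P3h2 and Colgalt2 lower, at -1.30 and -1.08 (edgeR adjusted p from 0.0301 to 0.0451). Plod3 was chosen after its values were seen. P3h2, which hydroxylates proline mainly in basement membrane collagen, went from 61.4 ± 11.8 to 24.8 ± 15.5 CPM (SD, n = 4). The calls of P3h2 and Colgalt2 were absent under upper quartile and library size scaling, where both kept their sign. The main prolyl hydroxylase subunits P4ha1 and P4hb did not pass. Of the receptors, the collagen uptake receptor Mrc2 rose from 14.5 ± 2.93 to 55.6 ± 13.5 CPM (log2 fold change 1.93, SE 0.25, edgeR adjusted p = 0.000665), and Ddr1, Ddr2 and Itga1 did not pass.

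**Figure D5:**
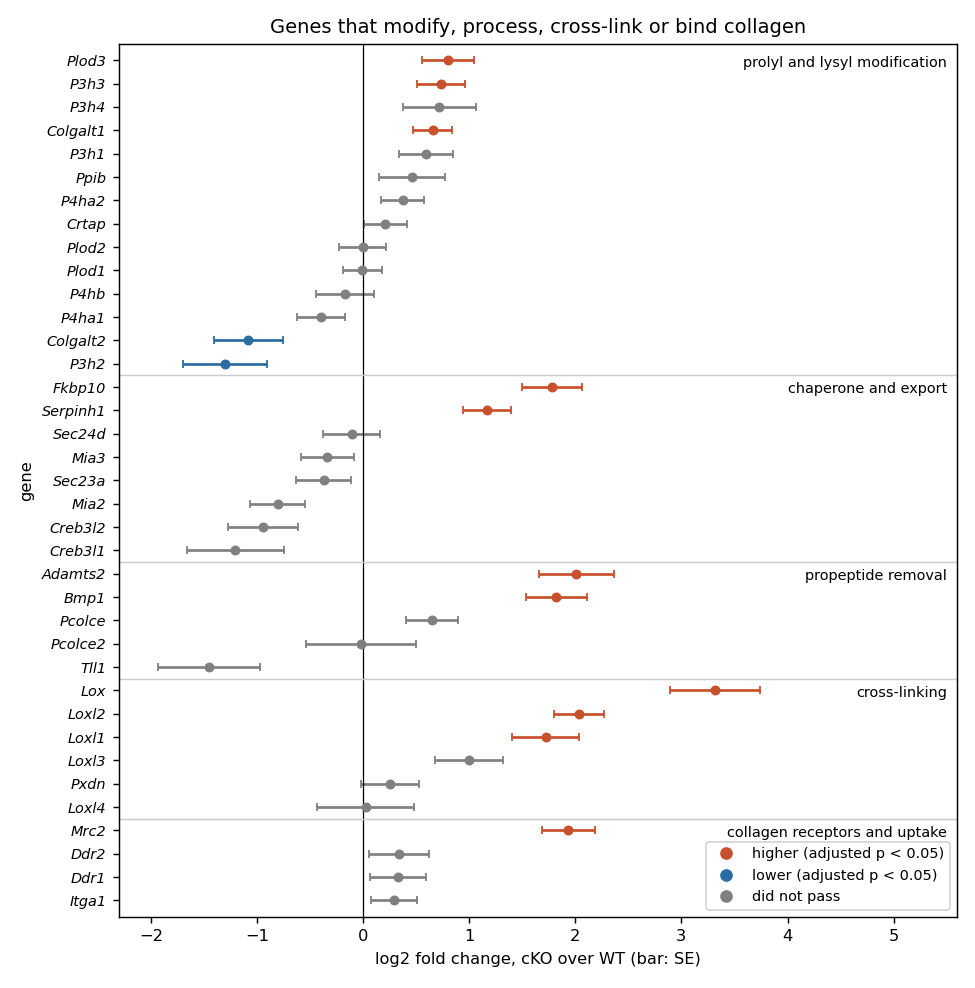
Log2 fold change, cKO over WT, of the 37 tested genes that modify, export, process, cross-link or bind collagen, with SE bars from the edgeR fit. The 11 genes called higher include Lox, Loxl2, Loxl1, Adamts2, Bmp1 and Mrc2, and the 2 called lower are P3h2 and Colgalt2.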

How the data were processed

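Kidney RNA sequencing libraries, 4 WT and 4 cKO, were grouped by their labels. The files hold expected counts per gene deposited by the authors, made with STAR and RSEM on mm10 per the submitters' processing notes, versions not given in the sources used here. These were rounded to whole numbers. Symbols, positions and exonic lengths came from GENCODE M21 (47224 of 47643 genes matched). The groups were compared with edgeR 4.0.16 (R 4.3.3): filterByExpr, TMM scaling, the robust quasi-likelihood test and Benjamini-Hochberg adjustment over 13829 genes at 0.05. CPM used the TMM-scaled library sizes. Chain ratios (pseudocount 0.5 counts) were compared by exact permutation tests with scipy 1.17.1. Sex was read from counts of Ddx3y, Uty, Kdm5d and Eif2s3y, with at least 10 taken as present.

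Alternatives were other scalings, count filters, age and sex terms, a replicate block, DESeq2 1.42.0, limma-voom (limma 3.58.1), stricter thresholds and libraries left out. The exonic length offset and the contrasts within libraries with or without Y-linked reads were chosen after seeing the data. Per-library values were given for up to 4 genes a class by length-scaled level and for the 5 largest rises and falls called, and other genes where a call depended on 1 library. From the processing gene list, up to 4 called genes a step by adjusted p were named. The members, lists and tests were chosen with earlier results of these data known. The edgeR script was tested on simulated data.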

Additional observations from a re-analysis of the deposited data

Results flagged for a closer look

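In 58 groups of 4 libraries, 3 had a highest library far from the other 3 (a gap to the nearest, relative to the group's range, above Dixon's 95% critical value), where chance alone flags about 5% of groups. Col6a6 stood at 43.1 CPM in WT 3, with the other WT libraries between 0 and 2.85. Col10a1 stood at 2.83 CPM in cKO 2, with the other cKO libraries between 0.783 and 1.11. Col26a1 stood at 7.69 CPM in WT 2, with the other WT libraries between 3.43 and 4.05.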

How the results depend on the processing

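The 19 higher and 3 lower collagen calls numbered 9 and 0 without WT 4 and cKO 4, 2 and 0 in the contrast among libraries lacking Y-linked reads, and 7 and 0 in the contrast among the others. The lower calls were also 0 with a sex term and 0 at an adjusted p under 0.01. With 1 library left out the calls ranged from 14 to 20 higher and from 1 to 4 lower. Of the genes for collagen processing, 11 higher and 2 lower, 6 and 0 were called without WT 4 and cKO 4, and the lower calls were 0 under upper quartile scaling, library size scaling, a sex term and an adjusted p under 0.01, 1 with no count filter, and 6 with an age term and with DESeq2. With 1 library left out they ranged from 8 to 13 higher and from 0 to 3 lower. With the replicate block, the collagen calls were 20 and 3, the processing calls 9 and 3, and 0 chain ratios passed, where 4 pairs allow no p below 0.125. Same-numbered libraries had residual correlations of -0.08, 0.28, 0.12 and 0.00. Those of differently numbered WT and cKO libraries ran from -0.28 to 0.20, so the values do not settle whether libraries were paired. Replicate 2 shares an age of 2.5 months and replicate 4 the later header numbers, and the labels name no shared animal or litter. Changes of direction were limited to values that had not passed. Col4a5 was 0.015 with a sex term, 0.012 without WT 4 and cKO 4, 0.031 with the length offset and 0.55 without Y-linked reads. Col4a6 was -0.16 without WT 4 and cKO 4 and -0.14 with Y-linked reads. Col6a6 ranged from -4.25 to 0.25 with 1 library left out and was 6.03 without Y-linked reads. Col14a1 ranged from -0.03 to 0.10 with 1 library left out and was -0.076 without WT 4 and cKO 4. The log2 ratio difference of Col3a1 to Col1a1 ranged from -0.52 to 0.042 with 1 library left out, and that of Col4a5 to Col4a6 was 0.12 without WT 4 and cKO 4. The cause of these changes was not tested, and some of the settings hold fewer libraries. Chain ratios cannot pass with fewer libraries, where the smallest exact permutation p is 0.0571 for 3 against 4. Library size scaling shifted the median log2 fold change over all genes by 0.16. At totals of 9454830 to 15838026 counts, 15 collagen genes fell below the count filter and were not tested.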

Other observations

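Itga11, a collagen-binding integrin chain of fibroblasts, fell below the count filter and was not tested. It had 1, 0, 1 and 1 counts in the WT libraries and 11, 12, 14 and 20 in the cKO libraries, in replicate order, so the groups did not overlap. It was chosen after its values were seen.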
